A study of Rattus norvegicus with 24 samples.

Results

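The 7 genes described here belong to sugar metabolism and the response to low oxygen, and were followed by their Ensembl identifiers through 24 RNA-sequencing libraries of rat cortical cells in culture. They were taken by name from a list and not by a cut on their values. The list was, however, chosen with earlier results of these data known. The members are the glucose transporter Slc2a1 (ENSRNOG00000007284) and the glycolytic enzymes Hk2 (ENSRNOG00000006116), Gapdh (ENSRNOG00000018630), Pgk1 (ENSRNOG00000058249) and Pkm (ENSRNOG00000011329). With them go the lactate-forming enzyme subunit Ldha (ENSRNOG00000013009) and the secreted growth factor Vegfa (ENSRNOG00000019598). All 7 were present among the 32754 gene rows of the deposited count table, and all 7 passed the filter on low counts that left 15908 genes for testing. The study, a kinomic study of excitotoxicity, set cultures exposed to excess glutamate, which injures neurons by overstimulation, beside cultures given fresh growth medium. Neurons were grown for 8 days on poly-D-lysine, after which the medium was exchanged for one with 250 μM glutamate or for plain growth medium, and the wells were imaged for 4 h. The groups were IS141 in glutamate, IS141 in medium, AH609 in glutamate, AH609 in medium, AH236 in glutamate, AH236 in medium, DMSO in glutamate and DMSO in medium, with 3 libraries each. DMSO, a common solvent, serves as the control, and IS141, AH609 and AH236 are agents known here by code names alone. The labels give neither their dose nor their timing, nor the time at which RNA was taken, nor the age or strain of the animals. Whether the replicates of a group came from separate cultures is not stated, and the tests therefore weigh differences against a library-to-library spread that can be purely technical.

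Glycolysis splits glucose into pyruvate in the cytosol and yields ATP without oxygen. Slc2a1 (GLUT1) brings glucose across the plasma membrane, Hk2 traps it as glucose 6-phosphate, Gapdh and Pgk1 act in the middle of the pathway, and Pkm makes pyruvate, which Ldha helps turn into lactate while restoring NAD+. In brain, Slc2a1 is known from endothelium and astrocytes, while neurons rely largely on the transporter Slc2a3, and lactate made by astrocytes can feed neurons. When oxygen is short, the transcription factor HIF-1 is stabilised and raises many of these genes, together with Vegfa, a ligand that drives vessel growth and also acts on neurons. Gapdh is often used as a loading standard in other assays.

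Library totals ran from 22509400 to 35496447 counts. The members were well covered, from 102 to 581 counts per library for Hk2 up to 21712 to 35155 for Gapdh. A single library stood apart: on the second principal component, which held 4.72% of the variance, DMSO replicate 1 in medium scored -48.0, while the 23 other libraries lay between -12.8 and 19.7. Levels are given in CPM, counts scaled to a common library size, after TMM scaling, which corrects library totals for a few genes taking a large share. Results that rest on DMSO replicate 1 in medium are given with and without it. Cell type markers could not be examined, because no other identifier in the table could be paired with a gene name, so the cell make-up of the cultures was not tested. In bulk RNA, a change in the number of cells of a type and a change in RNA per cell cannot be told apart.

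The stretches just upstream of 4 members are printed for orientation: the pair that rose most with glutamate (Slc2a1 and Hk2), the lactate dehydrogenase subunit Ldha, and Gapdh, whose change was small. Each is the 250 bases before the gene's start in the RefSeq table for the rat build GRCr8, written from 5′ to 3′ on the gene's own strand. These coordinates are not of the build used for the counts. Capitals mark the core of the hypoxia response element on either strand (ACGTG or GCGTG, so CACGT or CACGC on the other strand), and in Ldha also a cyclic AMP response element (TGACGTCA).
Slc2a1 (chr5:138002272-138002521, plus strand): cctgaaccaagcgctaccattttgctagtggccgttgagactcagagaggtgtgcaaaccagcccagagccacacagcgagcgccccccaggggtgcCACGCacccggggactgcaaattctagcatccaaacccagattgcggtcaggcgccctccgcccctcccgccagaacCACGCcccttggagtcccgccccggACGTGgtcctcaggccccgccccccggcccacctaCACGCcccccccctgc
Hk2 (chr4:116841276-116841525, minus strand): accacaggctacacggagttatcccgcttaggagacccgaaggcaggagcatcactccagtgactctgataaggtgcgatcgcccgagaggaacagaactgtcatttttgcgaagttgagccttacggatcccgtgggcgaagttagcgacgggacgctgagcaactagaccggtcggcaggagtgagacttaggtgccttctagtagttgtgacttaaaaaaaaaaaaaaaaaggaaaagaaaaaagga
Ldha (chr1:106507842-106508091, plus strand): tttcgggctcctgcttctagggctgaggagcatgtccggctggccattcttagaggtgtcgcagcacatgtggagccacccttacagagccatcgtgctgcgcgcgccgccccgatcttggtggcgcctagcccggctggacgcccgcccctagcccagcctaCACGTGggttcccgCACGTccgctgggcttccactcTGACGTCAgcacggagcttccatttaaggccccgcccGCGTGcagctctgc
Gapdh (chr4:159652468-159652717, minus strand): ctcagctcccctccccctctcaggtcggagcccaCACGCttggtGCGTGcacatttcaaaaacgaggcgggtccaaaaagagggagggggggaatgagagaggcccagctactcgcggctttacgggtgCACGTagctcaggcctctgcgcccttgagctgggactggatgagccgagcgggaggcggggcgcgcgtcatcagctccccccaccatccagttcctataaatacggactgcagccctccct
The Slc2a1 stretch held 4 hypoxia cores, the Ldha stretch 4 and the Gapdh stretch 3. In Ldha, 2 of the 4 are the same 6 bases read on both strands, which also form the E box CACGTG. The Hk2 stretch held none, and neither did the stretches of Pkm and Vegfa. A core of either spelling was found in 36.7% of all 33469 windows of this length, and TGACGTCA in 1.59%. At least 4 cores were found in 2.44% of the windows and at least 3 in 6.21%. The sequences describe this table, and a motif in these letters is neither a binding site nor a cause. Pgk1 is named only.

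All 7 genes were higher in glutamate than in medium in cultures of each of the 4 treatments, at an adjusted p under 0.05 (edgeR's quasi-likelihood test with Benjamini-Hochberg adjustment over all genes tested). Among all 15908 genes, 28.9% were higher in IS141 cultures, 30.1% in AH609, 29.5% in AH236 and 28.6% in DMSO cultures, and 38.8% over all 4 treatments together. The sizes differed widely. Over all 4 treatments the rise was 7.19-fold for Slc2a1, 3.02-fold for Hk2, 1.85-fold for Vegfa and 1.44-fold for Ldha. It was 1.28-fold for Pgk1, 1.24-fold for Gapdh and 1.17-fold for Pkm. The median log2 fold change of the members was 0.53, against 0.00037 over all genes tested. In this order, the 95% intervals of Pgk1 and Gapdh overlapped, as did those of Gapdh and Pkm, while those of the other neighbours did not. For Hk2 the log2 fold change over all 4 treatments was 1.59 with DMSO replicate 1 in medium and 1.80 without it.

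These fold changes are relative to TMM scaling, which assumes that most genes did not change. By the calls this was not met: 78.4% of all genes were called in either direction over all 4 treatments. Which scale is nearer the truth was not tested. When libraries were scaled by their totals instead, the median over all genes went to -0.19 on the log2 scale over all 4 treatments. On that scale Slc2a1, Hk2, Vegfa, Ldha, Pgk1 and Gapdh were still called higher over all 4 treatments, at log2 fold changes of 2.66, 1.40, 0.70, 0.34, 0.17 and 0.12. These were 6 of 7 members, where 25.6% of all genes were called higher on that scale. Over all genes, 4073 were higher and 8586 lower by library totals, against 6166 higher and 6300 lower after TMM scaling. Pkm was not called, at 0.033 (edgeR adjusted p = 0.33). Within treatments, library totals ended the call for Pkm in all 4, with the sign turned in DMSO at -0.029. They ended it for Gapdh in IS141, AH609 and DMSO cultures, and for Pgk1 in DMSO cultures. The rises of Slc2a1, Hk2, Vegfa and Ldha were called in every treatment on both scales.

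**Figure D1:**
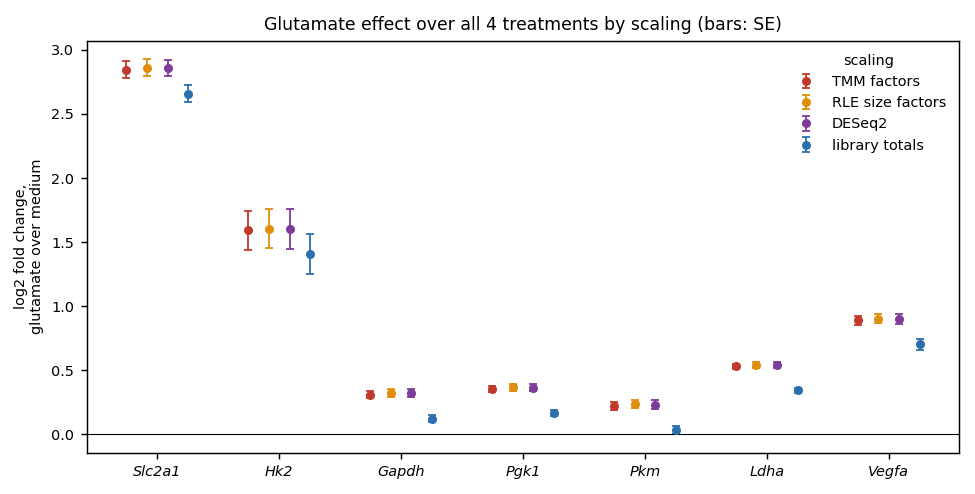
Log2 fold change of each gene in glutamate over medium, averaged over all 4 treatments, under 4 ways of scaling the libraries (points, with bars for the standard error). Library totals place every gene lower than the other scalings do, and Pkm then sits at 0.033, while Slc2a1 stays at 2.66.

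The largest response among the members was that of the glucose transporter Slc2a1. Its level was 80.0, 78.3 and 75.5 CPM in the IS141 glutamate libraries, against 12.2, 10.9 and 10.5 CPM in IS141 medium. AH609 cultures had 81.2, 77.0 and 77.5 CPM in glutamate and 8.99, 8.91 and 9.96 CPM in medium. In both treatments the glutamate and medium libraries were far apart and the replicates close together. In AH236 cultures the levels were 70.7, 65.8 and 68.5 CPM in glutamate and 9.38, 9.30 and 10.7 CPM in medium. DMSO cultures had 72.2, 72.7 and 65.0 CPM in glutamate and 15.0, 9.08 and 8.20 CPM in medium, where replicate 1 was the highest of the 12 medium libraries. No medium library reached any glutamate library. The log2 fold change was 2.80 ± 0.13 (SE) in IS141 cultures, 3.08 ± 0.13 (SE) in AH609, 2.80 ± 0.13 (SE) in AH236 and 2.70 ± 0.13 (SE) in DMSO cultures (edgeR adjusted p at most 1.88e-13). By the size of the rise over all 4 treatments Slc2a1 had rank 209 among the 15908 genes, Hk2 rank 696 and Vegfa rank 1582.

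Hk2, the hexokinase that binds mitochondria and is known as the inducible form, had the lowest count of the 7 genes in every library. In glutamate its level was 15.0, 15.5 and 16.2 CPM with IS141, against 5.12, 6.09 and 5.98 CPM with IS141 in medium. With AH609 it was 15.6, 15.1 and 15.3 CPM in glutamate and 4.07, 4.79 and 4.96 CPM in medium. In both treatments every glutamate library exceeded every medium library by more than 2-fold. AH236 cultures had 18.8, 15.1 and 17.3 CPM in glutamate and 4.06, 4.39 and 4.50 CPM in medium. DMSO cultures had 18.4, 19.0 and 17.2 CPM in glutamate, against 14.8, 4.61 and 4.17 CPM in medium. Replicate 1 of DMSO in medium thus had about the level of glutamate-exposed cultures, while the other two were like the medium libraries of the agents. For DMSO cultures the log2 fold change came to 1.21 ± 0.29 (SE) (edgeR adjusted p = 0.0016), and 2.05 without that library. It was 1.44 ± 0.31 (SE) with IS141, 1.73 ± 0.32 (SE) with AH609 and 1.98 ± 0.31 (SE) with AH236 (edgeR adjusted p at most 0.000577). With the DMSO groups fitted alone the Hk2 call was lost (adjusted p = 0.116).

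**Figure D2:**
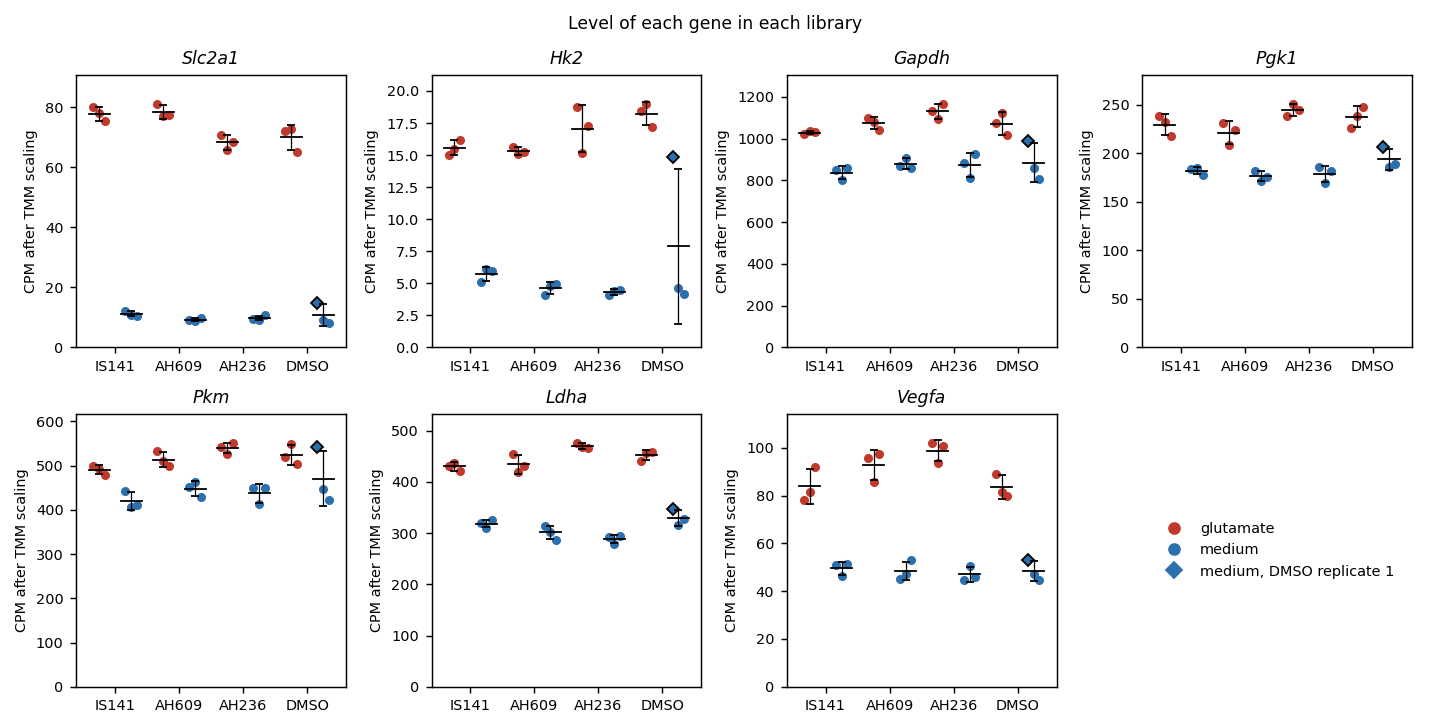
Level of each gene in every library, in CPM after TMM scaling, with glutamate libraries in red and medium libraries in blue, the group mean as a line and the SD as a bar (n = 3). The red points lie above the blue ones for every gene but Pkm, where the DMSO medium library marked by a diamond reaches the glutamate libraries. The same library is far from its group for Hk2.

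The 3 enzymes Gapdh, Pgk1 and Pkm changed by less. They and Ldha have pseudogenes named after them in the rat genome. Their counts may therefore be less certain than those of Slc2a1, Hk2 and Vegfa, but shared reads were not examined. Gapdh, which oxidises glyceraldehyde 3-phosphate, ranged over the 12 glutamate libraries from 1016 to 1168 CPM (median 1078) and over the 12 medium libraries from 801 to 989 CPM (median 858). Pgk1, which makes the first ATP of the pathway, ranged from 209 to 251 CPM (median 235) in glutamate and from 169 to 206 CPM (median 183) in medium. For both genes the 2 sets of libraries did not overlap, although the gap was narrow and the highest medium value was that of DMSO replicate 1. Pkm, pyruvate kinase, ranged from 479 to 551 CPM (median 515) in glutamate and from 406 to 542 CPM (median 445) in medium, so that the sets overlapped through DMSO replicate 1. Without that library the highest medium value of Pkm was 463 CPM, below all glutamate libraries. In CPM after TMM scaling, 6 of the 7 members had all 12 glutamate libraries above all 12 medium libraries, as did 16.7% of all genes tested. In CPM by library totals only Slc2a1, Ldha and Vegfa did, 3 of 7, against 10.1% of all genes. Without DMSO replicate 1 in medium these counts were 7 of 7 after TMM scaling (18.3% of all genes) and 4 of 7 by library totals, with Hk2 added (11.4%).

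The log2 fold change of Gapdh lay between 0.28 in DMSO and 0.37 in AH236 cultures, and that of Pgk1 between 0.29 and 0.45 in the same cultures. For Pkm it was 0.23 ± 0.063 (SE) with IS141, 0.20 ± 0.063 (SE) with AH609, 0.30 ± 0.063 (SE) with AH236 and 0.16 ± 0.063 (SE) with DMSO. The Pkm call in DMSO cultures depended on single libraries (edgeR adjusted p = 0.036). It was lost without DMSO replicate 2 or 3 in medium and without replicate 1 or 2 in glutamate, with log2 fold changes from 0.083 to 0.16. Without DMSO replicate 1 in medium it was 0.27 (adjusted p = 2.99e-05). In AH609 cultures it was lost without replicate 1 in glutamate or replicate 3 in medium (adjusted p = 0.0501 and 0.0529).

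Ldha, the subunit of lactate dehydrogenase that favours lactate formation, rose in every treatment, with the largest estimate in AH236 cultures. Its level with AH236 was 476, 467 and 466 CPM in glutamate, against 293, 279.7 and 295 CPM in medium, and with DMSO 441, 457 and 458 CPM in glutamate, against 346, 316 and 328 CPM in medium. After TMM scaling the AH236 libraries were thus the highest on average in glutamate and the lowest in medium. By library totals AH236 and DMSO overlapped in glutamate, at 419 to 434 CPM and 427 to 442 CPM. On that scale AH236 was still the lowest on average in medium, but not the highest in glutamate. With IS141 the levels were 432, 437 and 421 CPM in glutamate and 320.3, 311 and 325 CPM in medium, and with AH609 455, 419 and 431 CPM in glutamate and 314, 303 and 287 CPM in medium. The log2 fold change was 0.43 ± 0.044 (SE) with IS141, 0.53 ± 0.044 (SE) with AH609, 0.70 ± 0.044 (SE) with AH236 and 0.45 ± 0.044 (SE) with DMSO (edgeR adjusted p at most 4.3e-09).

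Vegfa, the member that is no metabolic enzyme or transporter, rose with a size between those of Hk2 and Ldha. In glutamate it had 78.1, 81.6 and 92.2 CPM with IS141, 95.6, 85.7 and 97.3 CPM with AH609, 102, 93.7 and 101 CPM with AH236 and 89.2, 81.5 and 79.8 CPM with DMSO. In medium it had 51.0, 46.6 and 51.4 CPM with IS141, 45.3, 47.3 and 52.9 CPM with AH609, 44.7, 50.7 and 45.8 CPM with AH236 and 52.9, 47.4 and 44.7 CPM with DMSO. The medium groups lay on top of one another, and the glutamate groups were spread more widely, with AH236 the highest. The log2 fold change was 0.76 ± 0.075 (SE) with IS141, 0.94 ± 0.075 (SE) with AH609, 1.07 ± 0.075 (SE) with AH236 and 0.79 ± 0.075 (SE) with DMSO (edgeR adjusted p at most 3.12e-09).

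**Figure D3:**
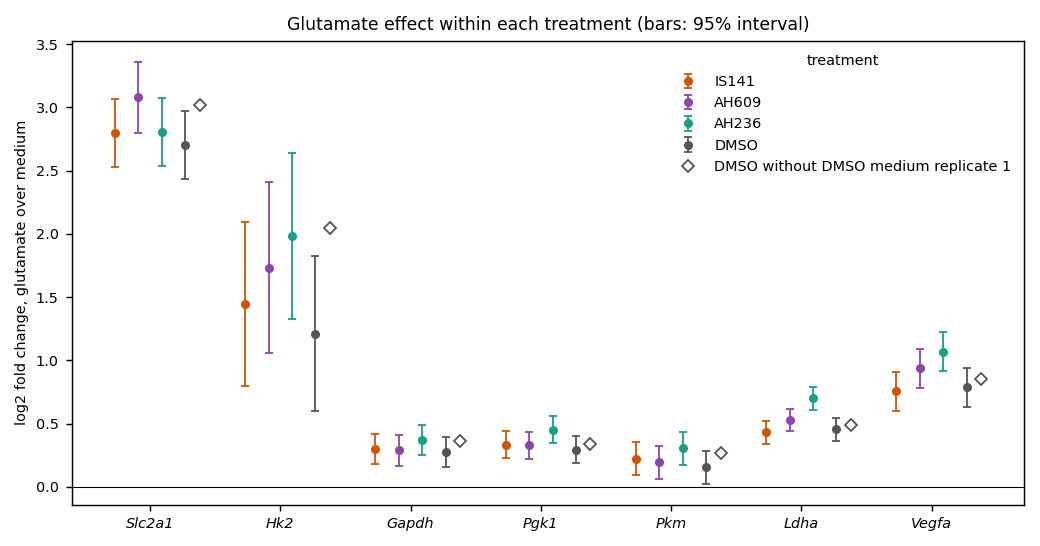
Log2 fold change of glutamate over medium for each gene within IS141, AH609, AH236 and DMSO cultures (points, with bars for the 95% interval), and for DMSO cultures also without DMSO medium replicate 1 (open diamonds). In DMSO cultures Hk2 is at 2.05 without that library and 1.21 with it, and Slc2a1 at 3.02 without and 2.70 with it.

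Ratios of counts between genes of the same library do not depend on how libraries are scaled. For every 100 Gapdh counts there were 5.87 to 7.84 Slc2a1 counts in the 12 glutamate libraries, against 0.979 to 1.51 in the 12 medium libraries. Vegfa gave 7.25 to 9.32 counts per 100 of Gapdh in glutamate and 4.95 to 6.25 in medium. Relative to Gapdh, both transcripts were higher in every glutamate library than in any medium library. Hk2 gave 1.38 to 1.71 per 100 Gapdh counts in glutamate and 0.46 to 1.50 in medium, where the top value was that of DMSO replicate 1. Ldha gave 82.2 to 90.9 counts per 100 of Pkm in glutamate, against 64.0 to 79.2 in medium, with no overlap. Set against Gapdh instead, the Ldha ranges overlapped, at 38.9 to 45.1 in glutamate and 31.9 to 40.5 in medium. Pgk1 per 100 Pkm counts also overlapped, at 41.0 to 49.2 in glutamate and 37.0 to 45.6 in medium. Whether Ldha separated the media thus depended on the gene it was set against. Gapdh per 100 Pkm counts overlapped too, at 201 to 215 in glutamate and 183 to 209 in medium. Such ratios compare libraries and not the abundance of 2 genes, since the genes differ in length.

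**Figure D4:**
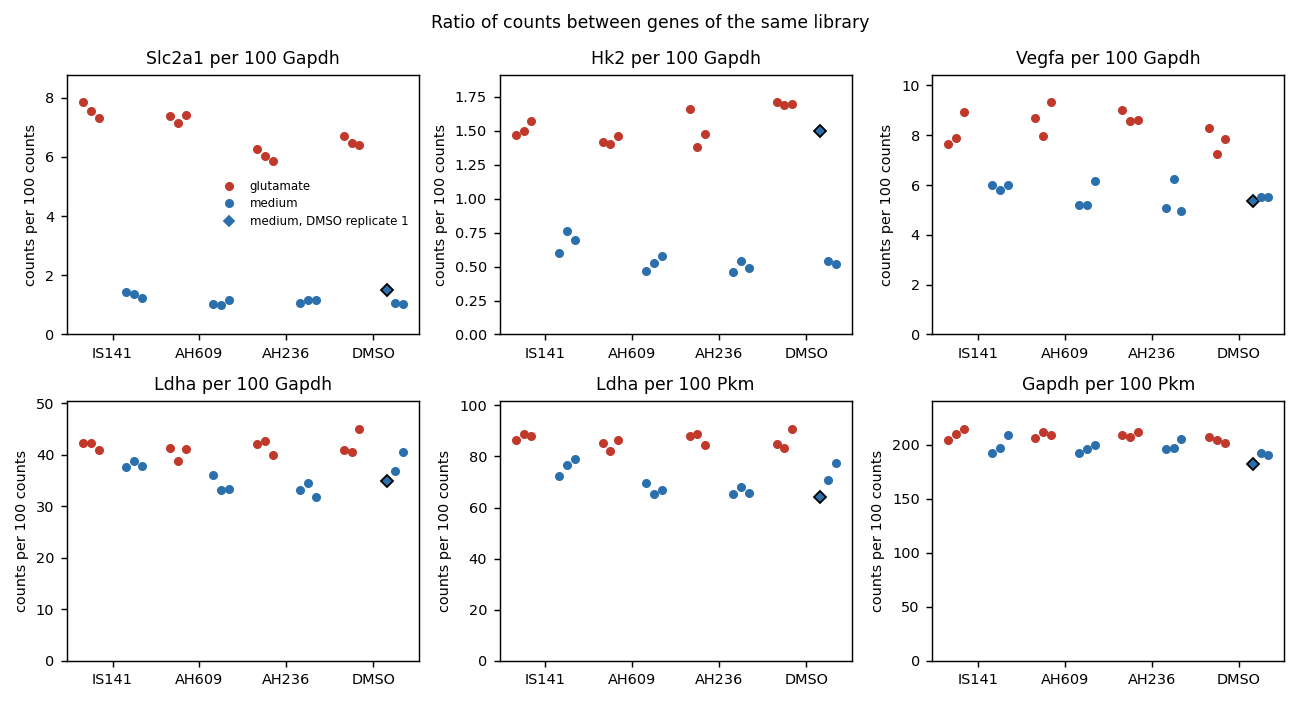
Counts of 1 gene per 100 counts of another in the same library, with glutamate libraries in red, medium libraries in blue and DMSO medium replicate 1 as a diamond. Slc2a1 and Vegfa per 100 Gapdh and Ldha per 100 Pkm separate the media completely, while Hk2 per 100 Gapdh, Ldha per 100 Gapdh and Gapdh per 100 Pkm overlap.

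DMSO replicate 1 in medium was higher than the other two DMSO medium libraries for all 7 genes, but not in a common proportion. On the log2 scale it stood 85.6% of the way from these libraries to the DMSO glutamate mean for Hk2, 68.4% for Gapdh and 118% for Pkm. For Pgk1 it stood at 39.7%, for Slc2a1 at 26.3%, for Vegfa at 23.3% and for Ldha at 21.9%. What set this library apart was not tested.

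The agents were compared with DMSO next. In medium no member was called with IS141, none with AH609, and with AH236 only Ldha, which was lower (edgeR). Of all genes tested, 7.98% were called with IS141, 3.06% with AH609 and 10.5% with AH236 in medium. At an unadjusted p under 0.05 there was 1 member with IS141 (21.9% of all genes), 3 with AH609 (16.1%) and 3 with AH236 (24.3%). DESeq2 called 0 with IS141 (10.1% of its genes), 0 with AH609 (4.98%) and 2 with AH236 (12.3%). Ldha averaged 289 ± 8.16 CPM with AH236 and 330.0 ± 15.5 CPM with DMSO in medium (SD, n = 3 each). All 3 AH236 libraries lay below all 3 DMSO libraries, but how many of all genes separate in this way was not counted. The log2 fold change was -0.19 ± 0.044 (SE), with an edgeR adjusted p of 0.00558. Without DMSO replicate 1 it was -0.15 (adjusted p = 0.0242), and with the compared groups fitted alone the call was lost (adjusted p = 0.187).

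Whether Hk2 and Slc2a1 differed between agents and DMSO in medium turned on DMSO replicate 1. Hk2 averaged 5.73 ± 0.531 CPM with IS141, 4.61 ± 0.471 CPM with AH609, 4.32 ± 0.232 CPM with AH236 and 7.88 ± 6.04 CPM with DMSO (SD, n = 3 each). With all libraries the log2 fold change was -0.46 ± 0.32 (SE) with IS141, -0.77 ± 0.33 (SE) with AH609 and -0.86 ± 0.33 (SE) with AH236. None of the 3 was called (edgeR adjusted p = 0.438, 0.26 and 0.106). Without DMSO replicate 1 the value for IS141 turned to 0.38 and was called higher (adjusted p = 0.0287), and those for AH609 and AH236 were 0.075 and -0.020 (adjusted p = 0.812 and 0.949). Without DMSO replicate 2 or 3, which leaves replicate 1 with more weight, Hk2 was called lower with AH236 at -1.12 and -1.18 (adjusted p = 0.0247 and 0.0121), and DESeq2 called it lower with all libraries (-0.87, adjusted p = 0.0493). For Slc2a1 the IS141 difference was 0.064 ± 0.14 (SE) with all libraries (adjusted p = 0.842) and 0.38 without DMSO replicate 1 (adjusted p = 0.00255). Its 3 IS141 medium libraries lay between 10.5 and 12.2 CPM, above DMSO replicates 2 and 3 at 9.08 and 8.20 CPM and below replicate 1 at 15.0 CPM. Pkm was called lower with IS141 without DMSO replicate 3 (log2 fold change -0.24, adjusted p = 0.0193), against -0.16 with all libraries (adjusted p = 0.115). Leaving out replicate 3 also gives replicate 1 more weight. Without DMSO replicate 1 the Pkm difference was -0.050 and was not called.

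In glutamate, the count of members called was 0 with IS141, 0 with AH609 and 1 with AH236 (edgeR), against 8.46%, 2.62% and 10.3% of all genes. At an unadjusted p under 0.05 there were 0 members with IS141 (23.5% of all genes), 1 with AH609 (15.5%) and 1 with AH236 (23.5%). DESeq2 called 0 with IS141 (11.3% of its genes), 0 with AH609 (4.04%) and 1 with AH236 (12.8%). The call was Vegfa, which averaged 98.8 ± 4.45 CPM with AH236 and 83.5 ± 5.02 CPM with DMSO (SD, n = 3 each). After TMM scaling all AH236 glutamate libraries were above all DMSO glutamate libraries. The share of all genes that separate these groups so was not counted. By library totals the groups overlapped: AH236 replicate 2 in glutamate (85.7 CPM) lay below DMSO replicate 1 in glutamate (86.8 CPM). The difference after TMM scaling was 0.24 ± 0.073 (SE) on the log2 scale, with 0.0338 as edgeR's adjusted p. The call was lost on library totals (0.17, adjusted p = 0.192) and without AH236 replicate 1 or 3 or DMSO replicate 2 or 3 in glutamate (0.21 to 0.23, adjusted p from 0.0945 to 0.13). With AH609 the Vegfa difference was 0.15 (95% interval 0.0035 to 0.31, adjusted p = 0.309), and with IS141 0.0079 (95% interval -0.14 to 0.16, adjusted p = 0.963).

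For Slc2a1, all IS141 and AH609 glutamate libraries lay above all DMSO glutamate libraries. Neither difference was called, at 0.16 ± 0.11 (SE) and 0.17 ± 0.11 (SE) on the log2 scale (edgeR adjusted p = 0.44 and 0.516). The separation of 3 from 3 libraries here, for Vegfa above and for Hk2 below is weak evidence. A permutation test of such groups cannot give a p under 0.1. How many of all genes separate in this way was not counted. AH236 overlapped with DMSO, at -0.033 ± 0.11 (SE) (95% interval -0.27 to 0.20). Hk2 in glutamate was 15.6 ± 0.578 CPM with IS141, 15.3 ± 0.288 CPM with AH609 and 18.2 ± 0.906 CPM with DMSO (SD, n = 3 each), and the libraries of both agents lay below those of DMSO. The log2 differences were -0.23 ± 0.28 (SE) and -0.25 ± 0.28 (SE), not called (adjusted p = 0.678 and 0.747). DMSO replicate 1 in medium belongs to neither side of these differences. It enters their tests through the shared estimate of spread, and leaving it out also redoes the filter, the TMM factors and the adjustment over genes. Without it the IS141 difference, -0.23, was called (adjusted p = 0.0481), and that of AH609, -0.25, was not (adjusted p = 0.0581). Hk2 with AH236 was at -0.090 (95% interval -0.67 to 0.49). For Gapdh, Ldha, Pkm and Pgk1 the differences in glutamate ran from -0.10 (Pgk1 with AH609) to 0.076 (Gapdh with AH236). Comparisons of the agents within a medium share the DMSO libraries.

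**Figure D5:**
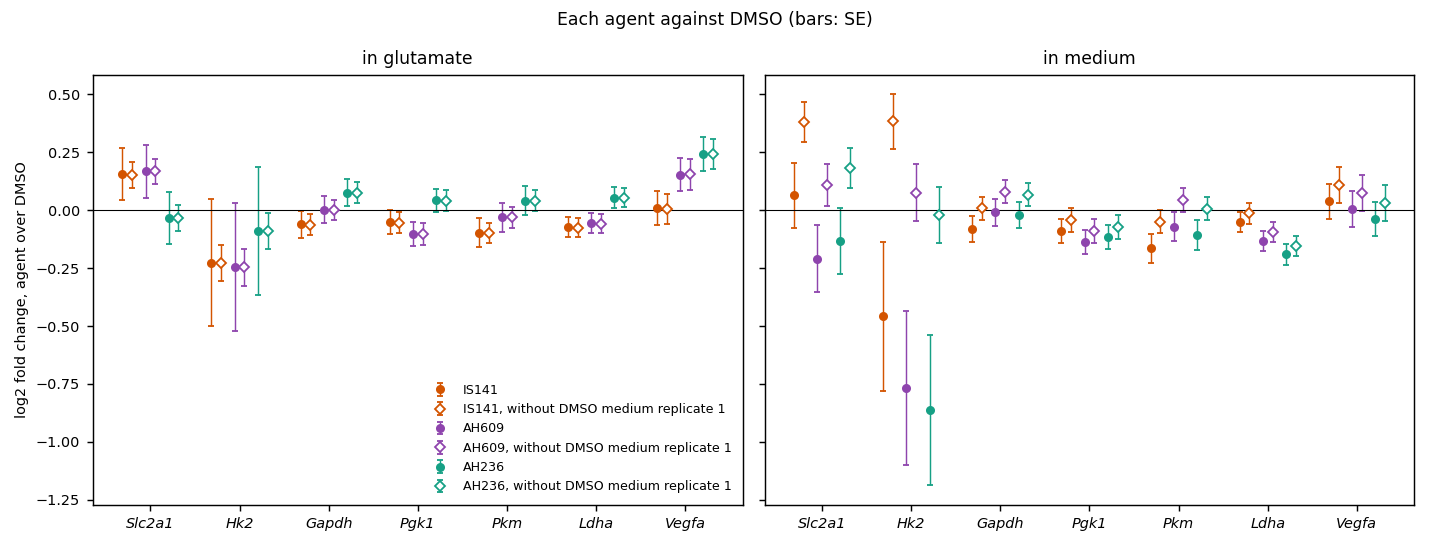
Log2 fold change of each agent over DMSO in glutamate and in medium, with all libraries (filled circles) and without DMSO medium replicate 1 (open diamonds), and bars for the standard error. In medium the open and filled points part for Hk2 and Slc2a1, while the estimates for glutamate stay in place and their bars shorten.

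Whether an agent altered the size of the glutamate effect was tested as the difference of the 2 effects. Ldha with AH236 was the only member called (edgeR), where 1.55% of all genes were called. Its glutamate effect was 0.70 with AH236 and 0.45 with DMSO, a difference of 0.25 ± 0.062 (SE) (edgeR adjusted p = 0.0424). Without DMSO replicate 1 in medium the difference was 0.21 (adjusted p = 0.0473). The size held between 0.21 and 0.28 with any of the 12 libraries left out, but the call stayed in only 3 of these 12 fits, with adjusted p-values from 0.0192 to 0.112. With AH236 the difference for Vegfa was 0.28 ± 0.11 (SE) (adjusted p = 0.189) and for Pgk1 0.16 ± 0.072 (SE) (adjusted p = 0.312), neither called. Without DMSO replicate 1 in medium these differences were 0.21 and 0.11, again not called.

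No member was called for IS141 or AH609 in this test, where 0.779% and 0.0251% of all genes were called. At an unadjusted p under 0.05 edgeR had 0 members for IS141 (9.93% of all genes) and 0 for AH609 (7.24%). DESeq2 called 0 for IS141 (1.58% of its genes) and 0 for AH609 (0.19%). The Hk2 difference with IS141 was 0.23 ± 0.42 (SE) with all libraries (edgeR adjusted p = 0.934). It turned to -0.61 without DMSO replicate 1 in medium and was then called (adjusted p = 0.00745). Without this library Hk2 had a glutamate effect of 1.44 with IS141 and 2.05 with DMSO.

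The agents were also set against one another over both media, 3 pairs in all, without use of the DMSO libraries in the difference. No member was called (edgeR), where 2.67% of all genes were called for AH609 against IS141, 16% for AH236 against IS141 and 0.685% for AH236 against AH609. At an unadjusted p under 0.05 there were 0 members for AH609 against IS141 (19.3% of all genes), 3 for AH236 against IS141 (29.8%) and 1 for AH236 against AH609 (11.7%). DESeq2 called 0 members in each pair, where it called 6.8%, 17% and 2.08% of its genes in the same 3 pairs. For AH236 against IS141 the difference of Slc2a1 was -0.19 ± 0.091 (SE) (adjusted p = 0.16), that of Gapdh 0.098 ± 0.041 (SE) (0.105) and that of Pkm 0.098 ± 0.045 (SE) (0.14). All 3 were called when these groups were fitted alone (adjusted p = 0.00345, 0.0244 and 0.0232) and when DMSO replicate 1 in medium was left out of the shared fit (0.00281, 0.0225 and 0.0221). Slc2a1 was then lower with AH236 than with IS141, and Gapdh and Pkm slightly higher. Of all genes, 23.4% were called with these groups alone and 22.7% without DMSO replicate 1 in medium. Both of these fits used TMM scaling. By library totals, with all libraries, the median log2 difference over all genes for this pair was -0.060, against -0.0045 after TMM scaling. Hk2 was at -0.17 for AH609 against IS141 (95% interval -0.64 to 0.31), at -0.13 for AH236 against IS141 (-0.60 to 0.33) and at 0.031 for AH236 against AH609 (-0.44 to 0.51). What the agents are and how their structures relate is not given in the labels.

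Over the 8 group means, the members moved together, with a Pearson r from 0.881 for Slc2a1 and Pkm to 0.995 for Ldha and Hk2. All these pairs share the libraries and the large difference between media. Within groups, over deviations of the 24 libraries from their group means, the closest pair was Gapdh and Pkm (r = 0.908, and 0.828 without DMSO replicate 1). Hk2 and Slc2a1 had r = 0.893 over the 24 libraries and 0.604 within the 12 glutamate libraries. Their r over all groups came down to 0.267 without DMSO replicate 1 in medium. Ldha and Pgk1 had r = 0.680 with it and 0.594 without it. Other pairs did not move together within groups: r was -0.22 for Pgk1 and Vegfa (-0.50 without that library) and -0.095 for Ldha and Vegfa (-0.36). Without that library r was also negative for Hk2 and Pgk1 at -0.45 and for Ldha and Hk2 at -0.32, against 0.32 and 0.38 with it. These correlations are descriptive, and deviations of genes in 1 library share its scaling. Likeness of pattern was sought in 4203 genes that averaged 3 log2 CPM or more and whose group means had an SD of 0.2 or more. The one closest to that of Slc2a1 was that of ENSRNOG00000002036 (r = 0.9996 over 8 group means), an identifier that the files do not name.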

How the data were processed

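RNA from cortical cells was extracted with a Qiagen RNeasy kit and made into directional libraries with a NEBNext kit, per the labels' protocols. What the authors deposited was 1 table of raw, whole-number counts for 24 libraries and 32754 Ensembl rat genes. The submitters' processing notes name bcl2fastq, FastQC (0.11.8), cutadapt (2.3), RSEM (1.3.3), STAR (2.7.8a) and the genome Rnor_6.0, with no word on settings, strand or annotation. Where RSEM was the counter, reads shared by similar sequences were divided among them, which makes counts of genes with many copies uncertain. In RefSeq's table for GRCr8, 81 pseudogenes are named after Gapdh, 30 after Ldha, 19 after Pkm and 8 after Pgk1, but 0 after Slc2a1, Hk2 or Vegfa. All 7 symbols were found in that table, and 6 had a promoter window.

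Groups came from the treatment labels and titles. Titles that do not mention glutamate were read as the fresh medium of the design text. A pair of AH236 glutamate titles carry the number 2, and the later is called replicate 3. The fit was edgeR 4.0.16 (R 4.3.3) over all 24 libraries, with filterByExpr, TMM factors, robust dispersion, 1 mean per group and quasi-likelihood F tests. In each of 17 comparisons the Benjamini-Hochberg adjustment covered all 15908 genes, with calls at 0.05. Each standard error was set to match the test's p. CPM are TMM-scaled, and log2 CPM had a prior count of 2. The method was tested on simulated data. Alternatives were RLE factors, library totals, no filter, DESeq2 1.42.0, compared groups alone, a replicate block and each library left out. No pair of replicates matched within counting noise (chi-square per degree of freedom at least 4.82).

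The members and lists were chosen with earlier results of these data known. The 13 lists of related genes and cell type markers (133 symbols) gave no result, since 0 could be paired with an identifier. By rule, all 7 members were named, then list genes by their glutamate effect, and the genes closest in pattern, with at most 2 unnamed identifiers.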

Additional observations from a re-analysis of the deposited data

Results flagged for a closer look

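The glutamate effect on Ldha differed between AH236 and DMSO cultures by 0.25 ± 0.062 (SE) on the log2 scale (edgeR adjusted p = 0.0424), which is a difference between groups under the same contrast. The effect was 0.70 with AH236 and 0.45 with DMSO. Over the alternatives the adjusted p ran from 0.00679 with DESeq2 to 0.203 with the compared groups fitted alone.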

How the results depend on the processing

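Of 1862 values of single members under an alternative, 1810 kept their direction where called and their side of the threshold, 34 lost a call, 15 gained one and 3 turned direction. Scaling by library totals left 4 of 7 members called for glutamate in DMSO cultures (18.1% of all genes higher), 1 for AH609 (2.98% of all genes called) and 2 for AH236 (12.4%) against DMSO in medium, 0 for AH236 in glutamate (11.7%) and 0 for the change of the glutamate effect by AH236 (1.32%). It turned Pkm in DMSO cultures to -0.029 on the log2 scale. The change by AH236 also had 0 calls with no filter (0.798%) and 0 with the compared groups alone (0.116%). DESeq2 called 2 members for AH236 in medium (12.3%), and the compared groups alone 0 (0.58%). Compared groups alone gave 3 for AH236 against IS141 (23.4%). The causes were not tested, but the groups alone use fewer samples.

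With 1 library left out, 0 to 2 members were called for IS141 against DMSO in medium (3.49% to 12% of all genes). For AH236 in medium the count was 1 to 2 (5.79% to 13.8%). In glutamate it was 0 to 1 for IS141 (3.75% to 15%) and 0 to 1 for AH236 (4.97% to 15.7%). For the change of the glutamate effect it was 0 to 1 by IS141 (0.422% to 4.6%) and 0 to 1 by AH236 (0.478% to 3.08%). For AH236 against IS141 it was 0 to 3 (10.9% to 22.7%). For Hk2 the log2 difference of IS141 and DMSO in medium ran from -0.77 to 0.38, and the change of its glutamate effect by IS141 from -0.61 to 0.55; the values 0.38 and -0.61, which turn the direction, are those without DMSO replicate 1 in medium. All 7 members stayed called higher over all 4 treatments with any library left out, as were 37.8% to 39.1% of all genes. With the replicate number as a block, all 7 members were again called in each glutamate comparison, where 28.5% to 38.8% of all genes were higher. None of the 119 member values, called or not, gained or lost a call. The numbers were not taken as pairing the samples: only 4 of 84 correlations between same-numbered deviations exceeded 0.1, with 0 of 28 group pairs over it in all.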
